A study of Mus musculus with 2 samples.

Results

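The 36 genes described here are 20 genes of glycolysis (glucose carriers, enzymes, enzymes that set the flux, and lactate carriers) and 16 other genes that cells raise when oxygen is short. They were taken by symbol from the 27998 genes that both libraries list, and were chosen with earlier results of these data known. The data are 2 droplet single-cell RNA libraries of C57BL/6 wild-type mouse lung fibroblasts, 1 control and 1 stimulated, so no difference between them has a replicate check. The cells were grown on plastic from whole dissociated lung to passage 3. They were then treated for 14 days, the stimulated cells with rosiglitazone (10 μM), SB4315442 (1 μM) or rhBMP4 (4 μM), alone or combined, and the control cells, from the same lung, with vehicle in the same medium. The labels do not say which of these agents the stimulated library received, nor whether its medium held 10% serum or the 1% ITS+3 supplement.

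Glycolysis turns glucose into pyruvate, and lactate dehydrogenase turns pyruvate into lactate, which leaves the cell through monocarboxylate carriers. When oxygen is short, the prolyl hydroxylases that mark HIF-1α and HIF-2α for destruction slow down, and the HIF proteins bind the short motif ACGTG or GCGTG in their target genes. Classical targets include most glycolytic enzymes, genes that limit pyruvate oxidation or remove mitochondria, collagen-modifying enzymes and the hydroxylases themselves. Fibroblasts that produce matrix use glycolysis and collagen hydroxylation heavily.

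The motif was looked for on both strands in the 250 bases before each start site in RefSeq's promoter table (GRCm38.p6), which held 32 of the 36 genes. Slc2a3, Bnip3l, Ndufa4l2 and Ndrg1 were not matched. At least 1 match stood in 35 of the 44 windows of these genes, 79.5%, against 38.6% of all 32851 windows, and the median G+C content was 63.4% against 52.4%. By gene, 17 of 19 glycolysis genes and 12 of 13 others had a match in at least 1 window, against 41.5% of all 27025 genes. A match is a run of letters and does not show that a factor binds there. The windows below are those of the 3 genes that were lowest by fold and of the 3 that were higher after stimulation, out of those with a single window, printed 5′ to 3′ on the gene's strand with each match in capitals. A match on the opposite strand reads CACGT or CACGC.
Slc16a3, chr11:120948817-120949066, plus strand: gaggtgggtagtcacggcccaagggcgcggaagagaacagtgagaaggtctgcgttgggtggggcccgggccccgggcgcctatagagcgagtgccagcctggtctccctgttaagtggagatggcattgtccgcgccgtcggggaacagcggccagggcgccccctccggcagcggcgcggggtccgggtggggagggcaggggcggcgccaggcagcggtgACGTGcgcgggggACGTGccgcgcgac
Ero1l (Ero1a in RefSeq), chr14:45318573-45318822, minus strand: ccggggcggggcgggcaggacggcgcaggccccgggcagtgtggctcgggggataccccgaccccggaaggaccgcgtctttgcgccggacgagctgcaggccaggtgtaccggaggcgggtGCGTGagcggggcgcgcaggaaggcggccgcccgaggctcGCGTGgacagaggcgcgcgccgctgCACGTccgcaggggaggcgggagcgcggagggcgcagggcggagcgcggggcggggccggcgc
Hk2, chr6:82774455-82774704, minus strand: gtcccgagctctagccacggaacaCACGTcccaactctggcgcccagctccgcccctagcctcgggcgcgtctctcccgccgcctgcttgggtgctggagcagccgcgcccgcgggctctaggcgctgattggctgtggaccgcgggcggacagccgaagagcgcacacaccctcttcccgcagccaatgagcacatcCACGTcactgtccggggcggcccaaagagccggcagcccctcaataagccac
Pgk1, chrX:106186850-106187099, plus strand: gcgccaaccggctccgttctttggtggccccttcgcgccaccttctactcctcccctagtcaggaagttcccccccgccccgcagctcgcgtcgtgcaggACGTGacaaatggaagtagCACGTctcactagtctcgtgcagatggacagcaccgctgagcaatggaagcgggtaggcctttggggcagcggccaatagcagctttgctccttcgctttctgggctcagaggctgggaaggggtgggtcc
Slc16a1, chr3:104638414-104638663, plus strand: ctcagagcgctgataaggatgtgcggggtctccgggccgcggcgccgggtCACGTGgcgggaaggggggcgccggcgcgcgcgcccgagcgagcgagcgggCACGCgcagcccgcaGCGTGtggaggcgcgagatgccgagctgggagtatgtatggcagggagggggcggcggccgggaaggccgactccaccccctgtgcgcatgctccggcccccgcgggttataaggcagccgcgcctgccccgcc
Pfkfb4, chr9:108991652-108991901, plus strand: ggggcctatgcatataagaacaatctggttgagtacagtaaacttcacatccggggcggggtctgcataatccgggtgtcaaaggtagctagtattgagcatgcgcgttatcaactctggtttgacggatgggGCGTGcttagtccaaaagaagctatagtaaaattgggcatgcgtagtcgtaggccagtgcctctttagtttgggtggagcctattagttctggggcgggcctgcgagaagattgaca
Both Slc16a3 matches lay close to the start site, 27 and 14 bases before it. In Pgk1 the matches faced each other, 150 and 131 bases before the start. The first pair of Slc16a1 matches overlapped in a single CACGTG, which reads ACGTG on both strands. Genes that were lower and genes that were higher in the stimulated library both carried matches, 2, 3 and 2 in Slc16a3, Ero1l and Hk2, and 2, 4 and 1 in Pgk1, Slc16a1 and Pfkfb4.

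The control library gave 4703 kept cells with a median of 19634 UMIs (unique molecules counted) per cell, and the stimulated library 7468 cells with a median of 15379.5. Clustering both libraries together gave 15 clusters, of which 8, with 3715 of the 4703 control cells (79.0%) and 6134 of the 7468 stimulated cells (82.1%), were fibroblast-like by their markers. Levels are UMIs per 1000000 UMIs over a library's kept cells (CPM), given for the control first and then for the stimulated library. A gene counts as measured with a mean of at least 5 CPM and as higher or lower at 1.5-fold. Intervals of folds are exact 95% intervals that cover counting error only. All 12 fibroblast markers were measured, with 9 lower and 2 higher in the stimulated library. Macrophage markers summed to 750.3 and 19.2 CPM. Of the 10 measured, 9 were lower, and Adgre1 had no UMI in the stimulated library. Smooth muscle and pericyte markers summed to 1228 and 219.4 CPM, with 3 of the 5 measured lower and none at 0. In fibroblast-like cells they summed to 1205 and 122.6 CPM, with 4 of 5 lower, Des only there. Those cells leave out stimulated cluster 13 (531 cells), unnamed because Des was among its leading genes. They keep control cluster 3 (335 cells), which shares leading genes with it. The part of these markers and of this choice in the results was not tested. Mesothelial markers summed to 29.0 and 28.8 CPM, with 1 of 3 lower and 1 higher, and of the endothelial ones 1 was measured and did not pass the limit. Markers of epithelial, lymphoid, erythroid and fat cells were all under the filter. The libraries shared 53 barcodes. Results below are over all kept cells, with the fibroblast-like cells alone beside the main counts.

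Most genes of both groups were lower in the stimulated library. Of the 18 measured glycolysis genes, 12 were lower, 3 higher and 3 neither, where 12% of all 8787 measured genes were lower and 7.75% higher. Of the 16 other hypoxia-inducible genes, 13 were lower, none higher and 3 neither. At 2-fold, 4 glycolysis genes and 12 others were lower and the same 3 glycolysis genes higher, where 5.05% of all measured genes were lower and 3.3% higher. The median log2 fold was −0.73 for the glycolysis genes, −1.32 for the others and −0.06 for all measured genes. Added up, the glycolysis genes made 7188 and 4290.1 CPM, 1.68-fold lower, and the other genes 3958 and 1734 CPM, 2.28-fold lower. Scaled with edgeR's TMM factors, 9 glycolysis genes and 13 others were lower and the same 3 higher, and with DESeq2's size factors 11, 13 and 3. Of all measured genes, 9.41% were lower and 10.2% higher with TMM, and 9.81% and 9.84% with DESeq2's factors. Of all genes past 1.5-fold, 60.8% were lower as reported, 47.9% with TMM and 49.9% with DESeq2's factors, where the median of all genes was 0.04 and 0.03. In fibroblast-like cells alone the same 12, 3, 13 and 0 were counted, with medians of −0.73 and −1.36, where 12.6% of 8752 genes were lower and 7.98% higher. These cells include control cluster 3 but not stimulated cluster 13, which shares leading genes with it. The macrophage markers stood at 82.0 and 18.8 CPM there, and what part the remaining difference has in these values was not tested.

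**Figure D1:**
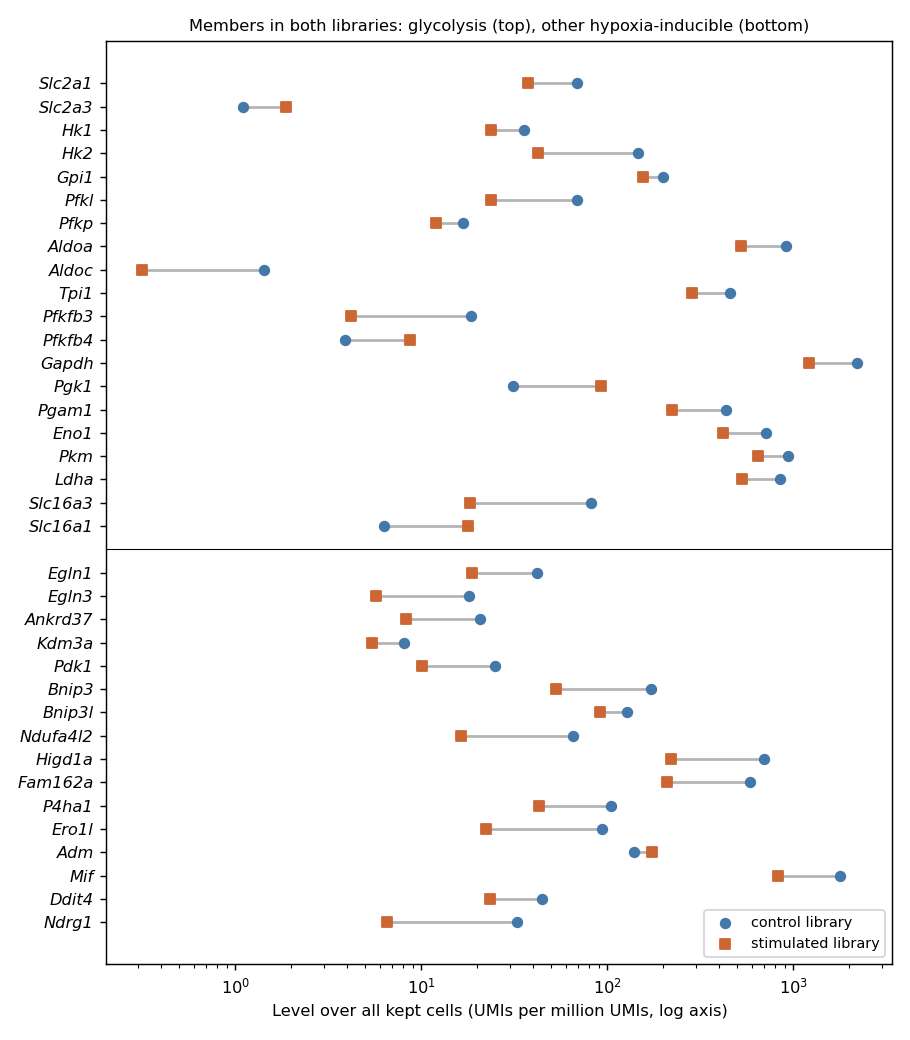
Level of each of the 36 genes in the control library (blue circles) and the stimulated library (orange squares), in CPM on a log axis, glycolysis genes above the line and other hypoxia-inducible genes below. The orange square lies left of the blue circle for all but 5 genes, Slc2a3, Pfkfb4, Pgk1, Slc16a1 and Adm.

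The glucose carrier GLUT1, encoded by Slc2a1, was lower. Slc2a1 stood at 68.4 and 37.7 CPM, 1.82-fold lower (1.75 to 1.89). The GLUT3 gene Slc2a3 was under the filter in both, at 1.11 and 1.88 CPM. Hexokinases then trap glucose by phosphorylation, and the fold was larger for the hypoxia-inducible isoform. Hk2 went from 146 to 42.6 CPM, 3.44-fold lower (3.33 to 3.55). The housekeeping isoform Hk1 was at 35.6 and 23.7 CPM, 1.5-fold lower (1.43 to 1.58), just past the limit, while the gene just short of it, Kdm3a, had 1.49.

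In the steps from glucose 6-phosphate to the triose phosphates, the 2 measured phosphofructokinase genes, which encode subunits of the committed enzyme, differed unequally. Pfkl, the liver-type subunit, was at 68.5 and 23.8 CPM, 2.88-fold lower (2.75 to 3.01). The platelet-type Pfkp was at 16.8 and 12 CPM, 1.40-fold lower (1.3 to 1.51), and passed no limit. The isomerase Gpi1, at 200.1 and 155 CPM, was 1.29-fold lower (1.27 to 1.32), also short of the limit. Aldoa, the main aldolase, was at 915 and 526 CPM, 1.74-fold lower (1.72 to 1.76), and Tpi1, which interconverts the trioses, at 460.2 and 286 CPM, 1.61-fold lower (1.59 to 1.63). Aldoc, a second aldolase, stayed under the filter at 1.43 and 0.316 CPM.

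Of the bifunctional enzymes that make and break fructose 2,6-bisphosphate, the strongest activator of phosphofructokinase, 1 was lower and 1 higher. Pfkfb3, whose product has by far the higher kinase than phosphatase activity, was at 18.4 and 4.20 CPM, 4.39-fold lower (3.96 to 4.86). Pfkfb4 was at 3.87 and 8.74 CPM, 2.26-fold higher (1.99 to 2.56). Each lay under 5 CPM in the library where it was low and passed the filter only by its mean.

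Of the 5 genes of lower glycolysis, 3 were lower, 1 higher and 1 neither. Gapdh, with more UMIs than any other of the 36, was at 2196 and 1222 CPM, 1.80-fold lower (1.78 to 1.81). Phosphoglycerate mutase Pgam1 was at 438 and 222 CPM, 1.97-fold lower (1.94 to 2.0), and the enolase gene Eno1 at 713 and 418 CPM, 1.71-fold lower (1.69 to 1.73). Pyruvate kinase Pkm, at 933 and 648 CPM, was 1.44-fold lower (1.43 to 1.45). Pgk1, whose product makes the first ATP of the pathway and which is a classical HIF target, was 2.95-fold higher (2.83 to 3.08), at 31.3 and 92.5 CPM. Of these 5 genes it alone was higher, while its neighbours in the pathway, Gapdh and Pgam1, were lower.

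Some of these genes have near copies that can divide their reads. Of the 90-base windows along the last 400 bases of the transcripts, 53.9% of those of Gapdh, 57.1% of Eno1, 27.3% of Pgk1 and 12.6% of Aldoa were found, with at most 2 mismatches, in another listed gene too, and how reads that fit both were counted is not given in the sources used here. The copies held few UMIs. With Pgk1-rs7 added, Pgk1 was at 31.5 and 93.8 CPM, 2.98-fold higher, and Gapdh, Eno1 and Aldoa with their copies were 1.80-, 1.70- and 1.74-fold lower. Reads left uncounted because they fit both genes would be missing from both, so these sums cannot show such a loss.

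At the lactate end, the transcripts of the lactate dehydrogenase subunit and the high-capacity exporter were lower and those of the other carrier higher. Ldha, the lactate dehydrogenase subunit that favours lactate, was at 852 and 529 CPM, 1.61-fold lower (1.59 to 1.63). Slc16a3, which encodes the lactate exporter MCT4, was at 81.9 and 18.3 CPM, 4.46-fold lower (4.25 to 4.69), the largest decrease among the measured glycolysis genes. Slc16a1, which encodes the monocarboxylate carrier MCT1, was at 6.28 and 17.9 CPM, 2.86-fold higher (2.60 to 3.14).

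**Figure D2:**
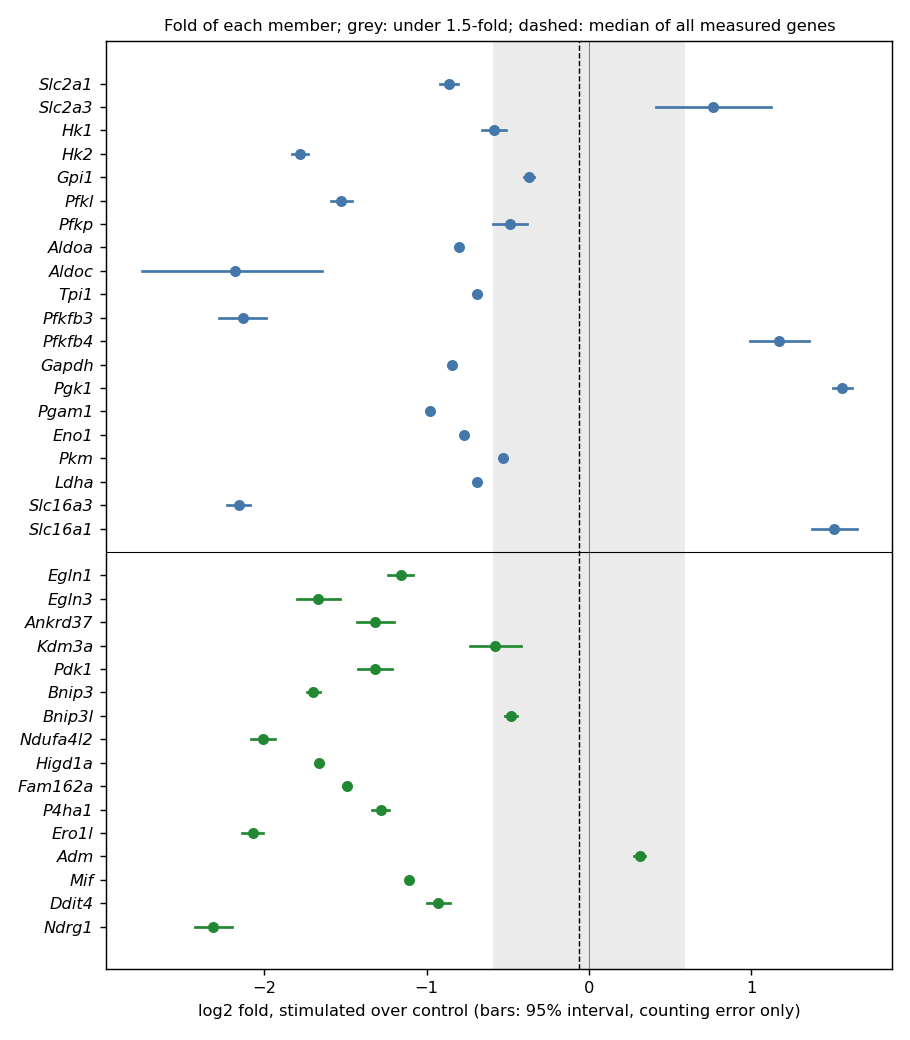
log2 fold of each gene, stimulated over control, with 95% intervals for counting error (blue: glycolysis, green: other hypoxia-inducible). The grey band marks less than 1.5-fold and the dashed line the median of all measured genes, −0.06; Pfkfb4, Pgk1 and Slc16a1 are the measured genes to the right of the band.

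Among the other hypoxia-inducible genes, the 4 that belong to oxygen sensing or HIF feedback were all at lower levels. The HIF prolyl hydroxylases Egln1 and Egln3 mark HIF for destruction and are themselves HIF targets. Egln1 was at 41.8 and 18.7 CPM, 2.23-fold lower (2.12 to 2.36). Egln3 was at 18.0 and 5.68 CPM, 3.17-fold lower (2.90 to 3.48), and the HIF target Ankrd37 at 20.7 and 8.30 CPM, 2.49-fold lower (2.30 to 2.69). Kdm3a, an oxygen-dependent histone demethylase, was at 8.12 and 5.44 CPM and did not reach the limit.

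Of the 6 genes whose products act at mitochondria, 5 were lower, with a median log2 fold of −1.58. Bnip3, a receptor for the removal of mitochondria, was at 172 and 53.1 CPM, 3.24-fold lower (3.15 to 3.34), whereas its relative Bnip3l, at 127 and 91.3 CPM, was 1.39-fold lower (1.36 to 1.43) and short of the limit. Pdk1, a kinase that shuts pyruvate dehydrogenase and so keeps pyruvate out of the citrate cycle, was at 25 and 10.04 CPM, 2.49-fold lower (2.32 to 2.68). Ndufa4l2, a mitochondrial protein that restrains respiration in hypoxia, was at 65.8 and 16.3 CPM, 4.02-fold lower (3.82 to 4.24). The HIF targets Higd1a and Fam162a were also lower, Higd1a at 698 and 221 CPM, 3.16-fold (3.12 to 3.21), and Fam162a at 588 and 209 CPM, 2.81-fold (2.77 to 2.86).

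Both genes of the secretory pathway were lower. P4ha1, the catalytic subunit of collagen prolyl 4-hydroxylase, was at 105 and 43.1 CPM, 2.43-fold lower (2.35 to 2.52). Ero1l, the oxidase that supplies disulfide bonds in the endoplasmic reticulum, was at 93.7 and 22.3 CPM, 4.20-fold lower (4.02 to 4.39). The 2 stress-linked genes were lower as well. Ndrg1 had the largest decrease of the 34 measured genes, from 32.7 to 6.57 CPM, 4.97-fold (4.59 to 5.39), and Ddit4, an inhibitor of mTORC1 signalling, was at 44.4 and 23.4 CPM, 1.90-fold lower (1.81 to 2.0). The secreted factors parted. Mif, a cytokine, was at 1778 and 826 CPM, 2.15-fold lower (2.14 to 2.17), while Adm, the vasodilator adrenomedullin and a HIF target, was at 140.0 and 174 CPM, 1.24-fold higher (1.22 to 1.27), and passed no limit.

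The lower sums were seen across the whole distribution of cells. When each cell was thinned to 5000 UMIs, which left 4077 control and 6708 stimulated cells and dropped 626 and 760 shallower ones, the median sum of the 20 glycolysis genes was 31 UMIs per control cell and 19 per stimulated cell. The quartiles ran from 24 to 41 and from 15 to 25. The 16 other genes summed to a median of 18 and 8 UMIs, with quartiles of 13 to 24 and 6 to 11. Without thinning the medians were 118 and 58 UMIs for glycolysis and 68 and 24 for the others. Of the stimulated cells, 827 of 6708, 12.3% (exact binomial 95% interval 11.6 to 13.1), reached the control median for glycolysis, and 259, 3.86% (3.41 to 4.35), for the other genes. These intervals treat the stimulated cells as independent draws and the control median as fixed. They do not cover the spread between cultures.

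**Figure D3:**
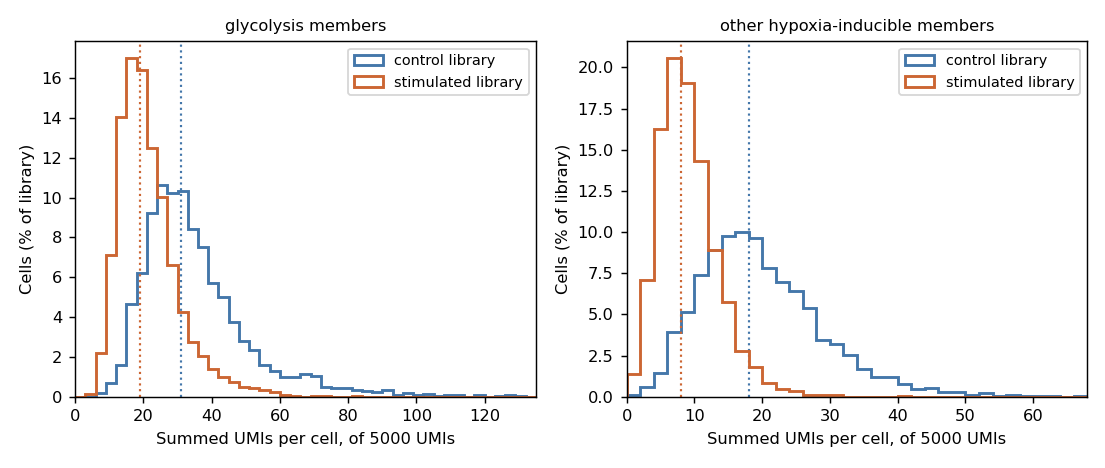
Distribution over cells of the summed UMIs of the glycolysis genes (left) and the other hypoxia-inducible genes (right), each cell thinned to 5000 UMIs, as percent of the cells of the control (blue) and stimulated (orange) library, with dotted lines at the medians of 31 and 19 (left) and 18 and 8 (right). The distributions overlap more for glycolysis than for the other genes.

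Relative to the mean, the SD over cells, counting error included, was similar in both libraries. The glycolysis sum had a mean of 34.8 ± 15.9 UMIs (SD over cells) in control and 20.9 ± 8.96 in stimulated cells, an SD of 0.458 and 0.428 times the mean. The other sum had 19.4 ± 9.02 and 8.60 ± 4.38 UMIs, 0.466 and 0.509 times the mean. The variance was 7.30 and 3.84 times the mean for glycolysis and 4.20 and 2.23 times for the others. Counting error adds more to the SD relative to the mean where the mean is lower. These ratios therefore do not compare the spread beyond counting. Some genes with few UMIs varied more than counting alone, which gives a variance of about 1 times the mean. In fibroblast-like cells Adm had means of 0.727 and 0.840 UMIs and a variance of 2.33 and 2.41 times the mean. Ndufa4l2 had means of 0.352 and 0.0843 UMIs and a variance of 2.23 and 1.67 times the mean. Over fibroblast-like cells the logs of the sums had r = 0.54 in 3679 control and 0.36 in 6098 stimulated cells. This describes cells of 1 library that share its depth. Both sums held fewer UMIs in stimulated cells, and the part of counting error in the lower r was not tested. Among cells with cycling transcripts the glycolysis medians were 34 and 20 UMIs and the others 19 and 9, and among cells without them 31 and 18, and 18 and 7, so the libraries differed in the same direction in and out of cycle.

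Within the clusters, the other hypoxia-inducible genes kept the libraries apart more than glycolysis did. Each cluster was judged in the library that held most of its cells. The glycolysis sum ran from 5942 CPM to 10312 CPM over the 9 control clusters and from 3764 to 6850.3 CPM over the 6 stimulated ones, so the ranges overlapped. Stimulated cluster 10, led by Ifit1, Isg15 and Ctsl, was the highest of its library. The other sum ran from 2128 CPM, in the macrophage-like cluster, to 4784 CPM over the control clusters, and from 1522 to 2035 CPM over the stimulated ones, with no overlap. Clusters of 1 library are not replicates, and most held cells of 1 library.

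**Figure D4:**
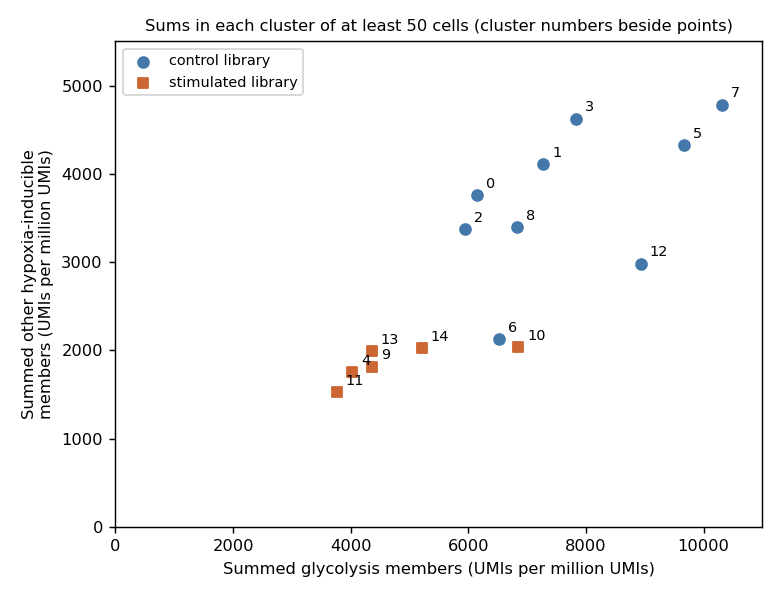
Sum of the glycolysis genes (x axis) against sum of the other hypoxia-inducible genes (y axis), in CPM, in each cluster of the control library (blue circles) and the stimulated library (orange squares), numbered by cluster. All stimulated clusters lie at or below 2035 CPM on the y axis and all control clusters at or above 2128.

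Among the named control clusters, cluster 3, led by Cxcl14, Hsd3b6 and Gzme, had the highest level of several of these genes, here chosen after their values were seen. It held Hk2 at 199 CPM, Slc2a1 at 123 CPM, Slc16a3 at 120 CPM, Bnip3 at 253 CPM, Egln1 at 71.7 CPM and Ndrg1 at 60.6 CPM. The shallow unnamed cluster 7, led by S100a11, Uqcrb and Acta1, showed another mix, with the highest Gapdh of all, 3466 CPM, but Hk2 at 10.7, Slc2a1 at 12.5 and Slc16a3 at 16.9 CPM. The genes that were higher in the stimulated library were so in nearly every cluster. Pgk1 lay between 9.32 and 38.9 CPM in the control clusters and between 89.3 and 114 CPM in the stimulated ones. Slc16a1 lay between 1.88 and 11.4 CPM and between 13.6 and 21.2 CPM. Pfkfb4 overlapped, since the control macrophage-like cluster held 22.4 CPM, above the 10.6 CPM of the highest stimulated cluster. Bnip3, at 65.4 to 253 CPM against 43.1 to 57.0 CPM, and Ndrg1, at 16.5 to 60.6 against 4.54 to 9.75 CPM, did not overlap either.

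Clusters of like character were then set against each other, paired where they shared at least 2 leading genes and both had a median of over 10000 UMIs per cell, a rule made after the clusters were seen. It leaves out the unnamed clusters 2 and 14, which also share leading genes but have medians of 1879 and 1845 UMIs, and whose sums were 5942 and 5207 CPM for glycolysis and 3376 and 2027 CPM for the other genes. In the largest clusters of each library, 0 and 11, 10 of 18 glycolysis genes and 13 of 16 others were lower, where 12% of 8553 genes were lower and 8.93% higher. In the cycling clusters 1 and 9 it was 11 and 14, against 11.3% lower and 6.45% higher of 8883 genes. Clusters 3 and 13, which share Gzme and Hsd3b6, had 14 and 15 lower, against 18.6% lower and 7.22% higher of 8916. Clusters 5 and 10, which share Ctsl and Serpinf1, had 7 and 13 lower, against 16.4% lower and 9.47% higher of 8634. In each of these 4 pairs the same 3 glycolysis genes were higher and no other hypoxia-inducible gene was. The median log2 fold ran from −0.93 to −0.55 for glycolysis and from −1.55 to −1.33 for the others. Pgk1 was 2.76- to 3.38-fold higher over the pairs, Pfkfb4 2.39- to 3.17-fold and Slc16a1 2.06- to 3.77-fold. Of the 34 measured genes Ndufa4l2 varied most by pair, from 2.28-fold lower in the cycling clusters to 8.02-fold lower in clusters 3 and 13. Egln3 ran from 1.86-fold lower in clusters 5 and 10 to 5.04-fold lower in clusters 3 and 13.

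**Figure D5:**
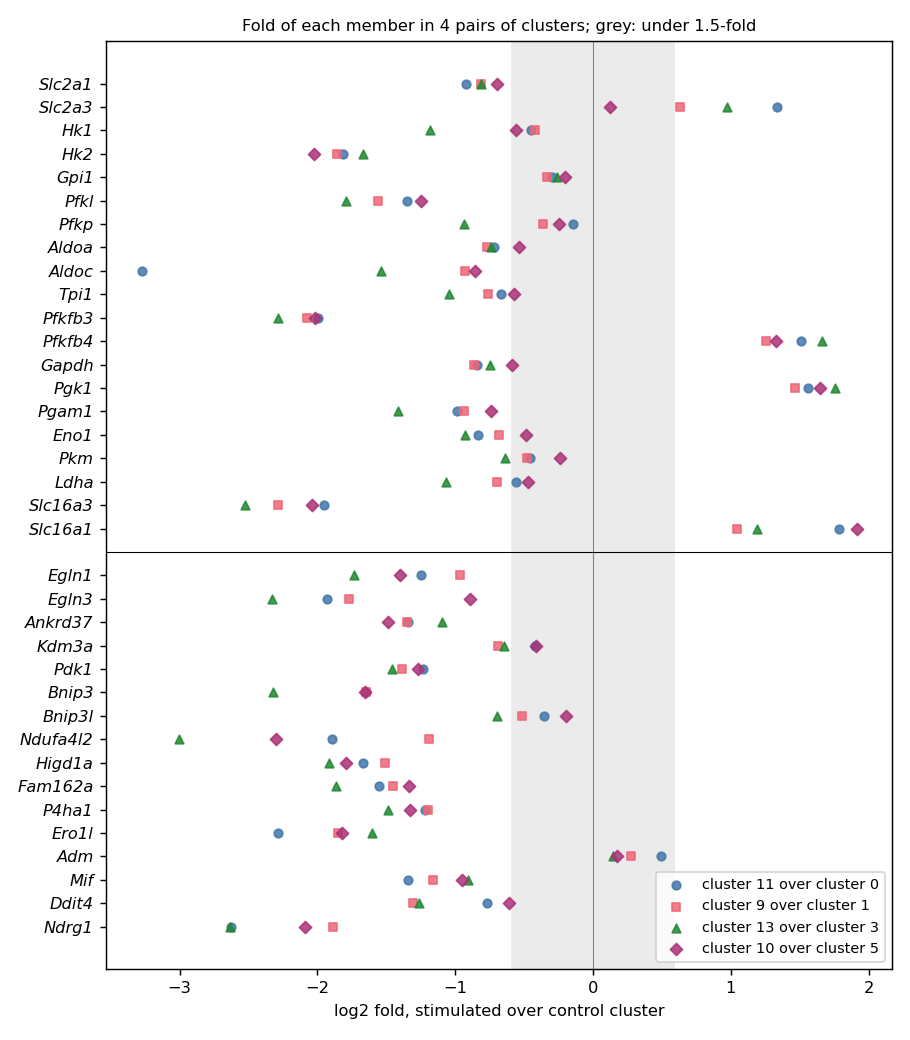
log2 fold of each gene, stimulated over control, in the 4 pairs of clusters (one symbol per pair), glycolysis above the line and other hypoxia-inducible genes below, with less than 1.5-fold in grey. Pgk1, Pfkfb4 and Slc16a1 lie right of the band in all 4 pairs, and Hk2, Pfkfb3, Slc16a3, Bnip3 and Ero1l left of it in all 4.

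Other genes of the same pathways are read against the same shares over all genes, 12% lower and 7.75% higher. Of 33 further genes of glycolysis and glucose entry, mostly isoforms of other tissues, 13 were measured, 5 lower and 2 higher, with a median log2 fold of −0.07. Eno3, the muscle enolase, was at 51.1 and 9.87 CPM, 5.18-fold lower (4.86 to 5.53). Pgm2, a phosphoglucomutase gene, was at 37.3 and 16.3 CPM, 2.28-fold lower (2.16 to 2.41). The 2 that were higher, named here after their values were seen, were Eno2, the neuronal enolase, at 5.49 and 9.37 CPM, 1.71-fold (1.53 to 1.90), and Emb, a chaperone of monocarboxylate carriers, at 17.5 and 31.3 CPM, 1.79-fold (1.69 to 1.90). Bsg, the chaperone that brings MCT1 and MCT4 to the membrane, was at 611 and 379 CPM, 1.61-fold lower (1.59 to 1.63).

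The oxygen-sensing machinery itself, 18 genes with 14 measured, had 4 lower and none higher, with a median log2 fold of −0.09. Hif1a, which encodes HIF-1α, was at 206 and 132 CPM, 1.56-fold lower (1.53 to 1.59), although HIF-1α is mainly controlled through the protein's stability, which these data do not measure. Cited2, which competes with HIF-1α for its coactivators, was at 128 and 68.3 CPM, 1.87-fold lower (1.81 to 1.92). Outside the naming rule and chosen after its values were seen, Hif3a, a HIF relative that can restrain the others, had 1 control UMI and 463 stimulated UMIs, a ratio of 349.9 (62.5 to 13851), at 3.95 CPM and thus under the filter. Also chosen so, the HIF-2α gene Epas1 was at 1.85 and 4.64 CPM, under the filter in both libraries.

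Among 45 further HIF targets, 34 were measured, 16 lower and 5 higher, with a median log2 fold of −0.53, and in fibroblast-like cells 18 lower and 4 higher. Added up, the 45 made 7321 and 24756 CPM, 3.38-fold higher, with Mt1 and Mt2 making most of the stimulated sum. The direction of the sum rests on Mt1 and Mt2 and differs from that of the median. Several of those that were lower act on matrix or vessels. Vegfa, the main vessel growth factor, was at 73.7 and 13.1 CPM, 5.64-fold lower (5.34 to 5.97). Of the collagen-modifying enzymes, Plod2 was 5.26-fold lower, Loxl2 4.56-fold, P4ha2 2.88-fold and Lox, at 735 and 336 CPM, 2.19-fold. Plod1, also on the list, was not among the genes called lower or higher. The mitochondrial adenylate kinase Ak4 was 4.17-fold lower, the nuclear receptor Rora 2.51-fold and the clock repressor Bhlhe40 2.29-fold. In the other direction, the metallothioneins Mt1 and Mt2, which bind metal ions, were 4.73- and 7.25-fold higher, to 14725 and 8284 CPM. Angptl4, a secreted inhibitor of lipoprotein lipase, was at 16.5 and 122 CPM, 7.40-fold higher (7.01 to 7.81), and Zfp395, a zinc finger protein, was 2.25-fold higher (2.04 to 2.49).

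Few genes passed the limit in the pathways that branch from or follow glycolysis. Of 20 genes of pyruvate entry and the citrate cycle, 15 were measured, 1 was higher and none lower, a share of higher genes near that over all genes. That one was Pdk4, a relative of Pdk1, at 1.07 and 14.3 CPM, 13.3-fold higher (10.8 to 16.6). It lay under 5 CPM in the control and passed the filter through the stimulated library. The mitochondrial pyruvate carrier subunits Mpc1, at 102 and 78.1 CPM, and Mpc2, at 140.1 and 105 CPM, passed no limit. All 8 genes of the pentose phosphate pathway were measured, and only H6pd, the form of its first enzyme in the endoplasmic reticulum, passed the limit, at 61.4 and 126 CPM, 2.06-fold higher (2.0 to 2.12). Pgls was at 299.8 and 328 CPM and Taldo1 at 114 and 80.4 CPM. In fibroblast-like cells Tkt, the transketolase, also passed, 1.51-fold lower. Of the regulators of sugar metabolism, Myc, which can drive glycolytic genes, was at 10.4 and 15.7 CPM, 1.51-fold higher (1.40 to 1.64), but 1.48-fold and short of the limit in fibroblast-like cells. Txnip, a sensor-controlled brake on glucose uptake, was at 45.1 and 46.0 CPM, and Mlxip and Arrdc4 were also short of the limit.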

How the data were processed

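The authors deposited, per library, a matrix of raw UMI counts for each gene in each barcode, not normalized. Libraries were made with the 10x 3′ v2 kit, per the labels' protocols. Per the file headers, Cell Ranger 3.0.2 wrote the matrices. The submitters' processing notes instead give version 1.3.1 of Cell Ranger, and Seurat 3.0.0. Neither build, annotation nor barcode filter was given in the sources used here. Such counts come from transcript 3′ ends and are not scaled to gene length.

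Barcodes with at least 500 genes and at most 20% mitochondrial UMIs were kept, which left out 313 of 5016 control and 230 of 7698 stimulated barcodes. Doublets were not removed. Counts were summed over kept cells, 88573140 and 117193148 UMIs, and divided by the total. Folds carry exact conditional-Poisson intervals. These were checked on data simulated with Poisson counting error alone, which the intervals also assume, so spread beyond counting was not checked. With 1 library per group no test was made. Cells were clustered with scanpy 1.11.5 (2000 variable genes, 30 components, 15 neighbours, resolution 0.5). A cluster took another cell type's name with at least 3 of its markers seen in 25% of cells and 2 among its 10 leading genes. Fibroblast-like clusters had at least 3 fibroblast markers seen and no other type with more leading markers. Clusters whose median depth was under their library's by a factor of over 3, with no such marker leading, stayed unnamed. For summed counts per cell, cells were thinned to 5000 UMIs. Cells were called cycling with at least 5 UMIs of 12 cycling genes and not in cycle with at most 1. Alternative scalings used edgeR 4.0.16 and DESeq2 1.42.0, for factors only. Transcript ends of GENCODE M21 were matched with minimap2 2.31.

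The genes and lists were chosen with earlier results of these data known. All 36 genes were named. Of each further list, genes with a fold of at least 2 and a mean of at least 5 CPM were named, with the 2 most abundant. 1 gene that this rule names is not reported here.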

Additional observations from a re-analysis of the deposited data

How the results depend on the processing

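With 1 library per group, neither the spread between cultures nor a batch can be told apart from the treatment, and no library could be left out. No paired analysis was possible because each group holds 1 library. Counting error was small for abundant genes, and the depth limits mainly Slc2a3, Aldoc and Hif3a. The filters and the alternatives below were run on the summed counts, and no fold of the 36 genes changed direction under any of them. The call held under all 9 settings for 31 genes. It changed for Hk1 under 6 settings, Kdm3a under 3, Ldha under 2 and Pfkp and Tpi1 under 1 each, which lay between 1.40- and 1.61-fold lower. Aldoc, at few UMIs, moved by over 1.5 times, to 9.67-fold lower in the largest cluster of each library.

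Under edgeR's TMM factors the median of all measured genes moved from −0.06 to 0.04, the medians of the glycolysis and other genes to −0.63 and −1.21, and under DESeq2's size factors to −0.64 and −1.23. With a mean of at least 20 CPM, 1 of 14 measured glycolysis genes was higher, Pgk1, where 5.97% of all 4639 genes were higher. At 2-fold in place of 1.5-fold, 4 of 18 glycolysis genes were lower, where 5.05% of all measured genes were lower. The ratio of the mean sums per cell, stimulated over control, was 0.601 for glycolysis. It was 0.607 in fibroblast-like clusters, 0.580 in cells not in cycle, 0.597 and 0.607 with 2000 and 10000 UMIs per cell, and 0.619 without Gapdh. For the other genes it was 0.445, with 0.433 in fibroblast-like clusters, 0.412 in cells not in cycle and 0.428 without Mif.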
